A study of Xenopus tropicalis with 9 samples.

Results

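The genes described here copy DNA or mend broken DNA. The rule that picked them uses names and no measured levels, but it was set with earlier results of these data known. A gene was taken if its symbol began with mcm, orc, rfc, fanc, xrcc, rad5, brca, msh or ercc followed by a digit or a single letter, or if it was 1 of 11 listed genes (*atm*, *atr*, *chek1*, *chek2*, *lig4*, *prkdc*, *parp1*, *pcna*, *cdc6*, *cdt1* and *cdc45*). This found 75 of the 23633 genes in the table. Most have a known place in replication or repair. Another 5 matched by name and were put in none of the roles used below: *mcm3ap*, *ercc6l*, *ercc6l2*, *xrcc6bp1* and *fancd2os*.

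RNA was sequenced from whole *Xenopus tropicalis* embryos of the Nigerian strain at stage 14, when the neural plate has formed, in 3 groups of 3 libraries. Water was injected into the control embryos. Fgf4 overexpressing embryos received 5 pg of Cska-Fgf4, a plasmid that expresses the growth factor gene *fgf4* from the Cska promoter, and Cic knockdown embryos received 1 ng of mRNA for each of the forward and reverse Cic-TALENs. TALENs are engineered nucleases, and this pair cuts the exon that encodes the DNA-binding HMG box of the transcriptional repressor Cic, so the knockdown embryos carry mixtures of edited and unedited cells and their *cic* RNA level does not report on the edit. Neither a TALEN pair without a target nor an empty plasmid is among the groups analysed here. *fgf4* stood at 95.4 to 1692 TPM in the Fgf4 libraries, at most 4.07 TPM in the control libraries and at most 6.57 TPM in the Cic knockdown libraries. *cic* ranged from 11.8 to 14.7 TPM in the Cic knockdown libraries and from 13.4 to 14.7 TPM in the control libraries.

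Values are in TPM, a transcript abundance scaled for transcript length, which allows genes to be compared within a library. The authors' values had been rescaled between libraries, whose sums ran from 871757 to 1162165, and between 3459 and 4864 genes were listed at 0 in a library. The depth behind a value is unknown, so precision rests on the 3 libraries of a group. Libraries with the same replicate number deviated from their group means together, with correlations across 13833 genes of 0.38 to 0.79 over 9 pairs of libraries, and replicate number was kept as a factor in every test. Replicate 3 differed from replicates 1 and 2 for many genes, as described at the end. Replicates 1 and 2 were not tested against each other.

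Before each round of replication the origin recognition complex (Orc), Cdc6 and Cdt1 load rings of the 6 Mcm2 to Mcm7 proteins onto DNA, and Cdc45 and the GINS complex then turn each ring into a working helicase. Replication factor C (Rfc) sets the Pcna clamp on the DNA, which tethers the polymerases. A broken chromosome is mended by homologous recombination, in which the Brca proteins act, or by end joining, led by Ku (Xrcc5 and Xrcc6), Lig4 and Xrcc4, while Atm, Atr and the Chek kinases hold the cell cycle. Frog eggs are loaded with replication proteins and their RNAs for the rapid early cleavages, and by the neurula stage cell cycles are slower and zygotic genes supply most of the RNA.

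In control embryos and in both treatments most of the copying genes were more abundant than most of the repair genes. Over all 9 libraries 6 genes had a mean of at least 100 TPM, and these were *mcm7* (497 TPM, which encodes a ring subunit), *parp1* (410 TPM, a sensor of single-strand breaks), *pcna* (345 TPM, the clamp), *cdc6* (217 TPM, an origin loading factor), *mcm3* (124 TPM) and *cdt1* (121 TPM, the partner of Cdc6 in loading). Another 33 lay between 10 and 100 TPM, 27 between 1.5 and 10 TPM and 9 below 1.5 TPM. The median of all 75 means was 10.95 TPM. By role, the median gene was at 83.3 TPM among the Mcm2 to Mcm7 genes, 24.1 TPM among the elongation genes, 23.3 TPM among the origin genes, 9.12 TPM among the recombination genes, 5.80 TPM among the end-joining genes and 3.68 TPM among the Fanconi genes, whose products act on crosslinked DNA. It was 16.3 TPM among the excision repair genes, 7.34 TPM among the checkpoint kinase genes and 0.854 TPM among the Msh genes. The 2 single-strand break repair genes, *parp1* and *xrcc1*, went against this order, with the highest median of any role at 226.5 TPM.

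**Figure D1:**
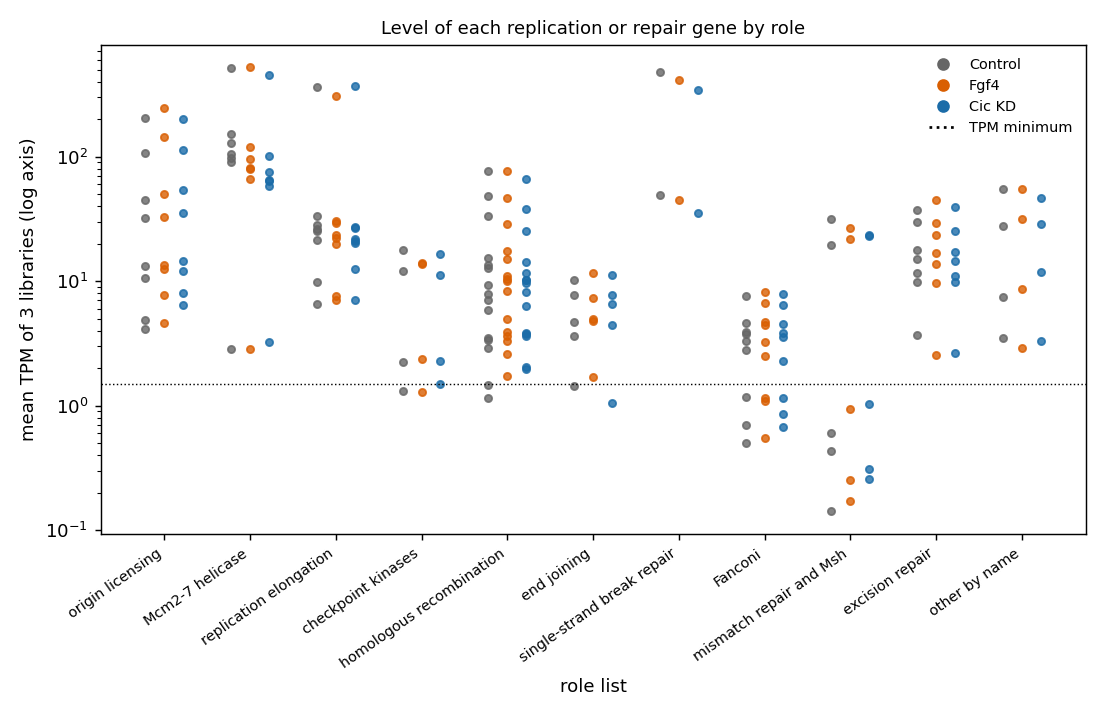
Mean level of 3 libraries (TPM, log axis) of each gene in the 3 groups (control, Fgf4 and Cic knockdown), with a point per gene and group, by role, and a dotted line at 1.5 TPM (*fancd2os*, at 0, is left out). The highest points, at 343 to 525 TPM apart from 306 TPM for *pcna* in the Fgf4 group, are *mcm7*, *parp1* and *pcna*, and 6 of the 9 genes with a mean under 1.5 TPM over all libraries are Fanconi and Msh genes.

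The leading genes of other roles were lower. *ercc6l* (a helicase of mitotic chromosomes) had a mean of 52.1 TPM, *ercc6* (a factor of transcription-coupled repair) 40.5 TPM and *msh6* (a mismatch recognition subunit) 27.3 TPM. The checkpoint kinase gene *chek1* stood at 16.0 TPM, the Ku subunit gene *xrcc6* at 10.95 TPM and *fancf* at 7.39 TPM. The genes of the large damage kinases were scarce, with *atr* at 2.29 TPM, *prkdc* at 1.40 TPM and *atm* at 1.36 TPM. The meiotic genes *msh4* and *msh5* had means of 0.332 and 0.191 TPM, and *fancd2os* was listed at 0 in every library.

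A test needed a mean of at least 1.5 TPM in a group, which 67 of the 75 genes had. The 8 that did not were *atm*, *fancb*, *fancc*, *fancd2*, *fancd2os*, *msh3*, *msh4* and *msh5*. *prkdc* passed through the Fgf4 group alone and so was not tested for Cic knockdown against control, which leaves 66 genes there. *brca2* and *xrcc2* were below the minimum in control and passed it in both treated groups. The direction of these genes against control was therefore partly fixed by the minimum, as was that of *prkdc* for Fgf4 overexpression. A gene was called when its unadjusted p in limma was at most 0.01 and its fold change at least 1.75 or at most 0.571, on log2(TPM + 0.5), a scale that understates changes of low genes. By these limits 2.56% of all 13437 genes tested were called for Fgf4 overexpression and 4.74% of 13598 for Cic knockdown. The control libraries are shared by both comparisons, whose values are therefore not independent of each other. In RNA from whole embryos, fewer cells that express a gene and less RNA per cell cannot be told apart.

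Most of these genes did not move detectably with either treatment. Fgf4 overexpression changed none of the 67 genes by the limits of the call. Of the 67, 1 had an unadjusted limma p of at most 0.01 (1.49%, against 3.27% of all genes) and 7 of at most 0.05 (10.4%, against 13.3%). The median log2 fold change was -0.0081, against 0.013 over all genes tested, with 33 genes above 0 and 34 below (48.3% of all genes tested were below). For Cic knockdown 1 of 66 genes was called (1.52%, against 4.74% of all genes), *cdc45*, which was higher. In that comparison 7 genes had a p of at most 0.01 (10.6%, against 5.89% of all genes) and 13 of at most 0.05 (19.7%, against 17.2%). Its median was 0.0070, against -0.022 over all genes, with 33 genes on either side of 0 (52.4% of all genes were below). After Benjamini-Hochberg adjustment no gene of the whole table passed 0.05 in either comparison, the smallest adjusted p in limma being 0.0711 for Fgf4 overexpression and 0.0712 for Cic knockdown. That count of 0 depended on the samples in the fit: 275 genes passed for Cic knockdown in the fit of the compared groups alone, 276 without Cic knockdown replicate 2, 168 without Fgf4 replicate 2 and 45 without all libraries of replicate 2, and 390 passed for Fgf4 overexpression without Fgf4 replicate 3. None of the replication and repair genes was among them.

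Direction was uneven among the genes with small p. In Cic knockdown embryos 6 of the 7 genes at a p of at most 0.01 were lower than control, whereas over all genes 4.46% were higher and 1.43% lower at that limit. Of those 6, 5 encode ring subunits: *mcm6.2*, *mcm4*, *mcm2*, *mcm3* and *mcm5*. The sixth is *parp1*. The count of Mcm2 to Mcm7 genes at this limit was chosen after their values were seen and is a description.

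*mcm6.2* is 1 of 2 Mcm6 genes in the table and had the lowest p of the ring genes. Its levels were 146, 124 and 117 TPM in control replicates 1, 2 and 3, and 71.9, 70.2 and 82.4 TPM in the Cic knockdown replicates. The Fgf4 libraries lay between these groups, at 100.4, 91.1 and 94.3 TPM. None of the 3 groups overlapped with another. Cic knockdown against control gave a log2 fold change of -0.78 (SE 0.14, limma adjusted p = 0.0765), or 0.584 of the control level, just short of the fold limit of the call. It passed that limit and was called with median-of-ratios scaling, and without control replicate 3 (-0.88), without Cic knockdown replicate 3 (-0.88) and without all libraries of replicate 3 (-0.91). For Fgf4 overexpression it was -0.43 (SE 0.14, limma adjusted p = 0.320).

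**Figure D2:**
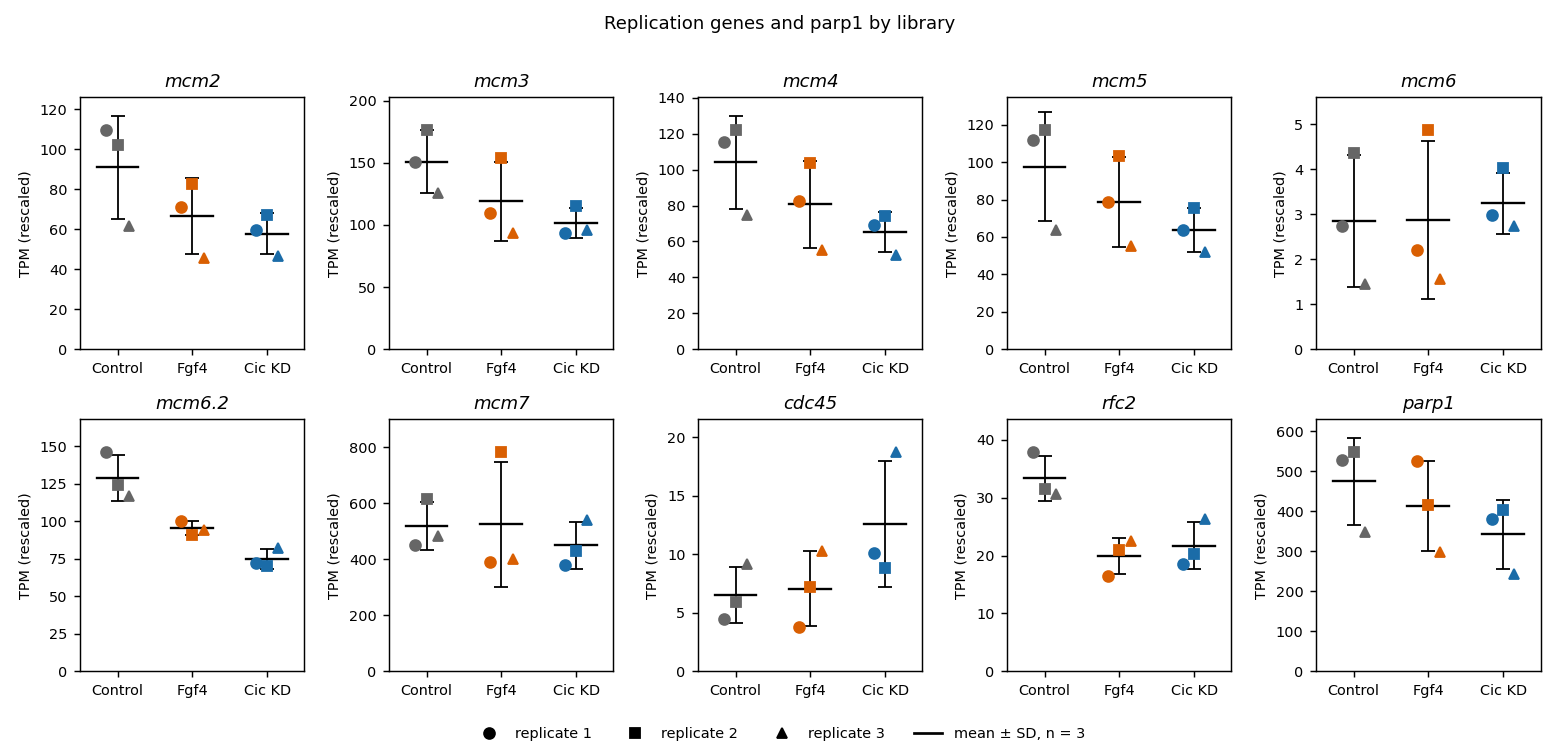
Levels (TPM, linear axes from 0) of the 7 Mcm2 to Mcm7 genes, *cdc45*, *rfc2* and *parp1* in the 3 groups (control, Fgf4 and Cic knockdown), with a point per library marked by replicate number, and the mean and SD of 3 libraries. For *mcm6.2* the 3 groups do not overlap, and for *mcm3* and *mcm4* the Cic knockdown points all lie under the control points.

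*mcm4*, which encodes another subunit of the ring, was at 116, 122 and 74.5 TPM in control embryos. In Cic knockdown embryos it was at 69.1, 74.2 and 52.4 TPM, every library below every control library, though by a small margin at control replicate 3. This gave a log2 fold change of -0.65 (SE 0.13, limma adjusted p = 0.0883). In the Fgf4 libraries *mcm4* stood at 82.8, 104 and 55.4 TPM, within the control range for replicates 1 and 2, with a log2 fold change of -0.38 (limma adjusted p = 0.328).

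*mcm3* was at 151, 176 and 126 TPM in control embryos and 93.4, 115 and 95.6 TPM in Cic knockdown embryos, again without overlap (log2 fold change -0.57, limma adjusted p = 0.120). *mcm2* was at 109, 102 and 61.5 TPM in control embryos and 59.4, 67.0 and 46.6 TPM after Cic knockdown. *mcm5* was at 112, 117 and 63.9 TPM in control embryos and 63.9, 75.5 and 51.9 TPM after Cic knockdown. Control replicate 3 was low for both genes, and the groups overlapped there, yet every Cic knockdown library was below the control library of the same number. The log2 fold changes were -0.62 for *mcm2* (limma adjusted p = 0.109) and -0.58 for *mcm5* (limma adjusted p = 0.130). In the Fgf4 libraries the log2 fold changes of *mcm2*, *mcm3* and *mcm5* were -0.45, -0.36 and -0.30 (limma adjusted p = 0.320, 0.344 and 0.419), and of the ring genes *mcm2*, *mcm3*, *mcm4* and *mcm6.2* had an unadjusted p of at most 0.05 there.

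The remaining ring genes gave no such difference. *mcm7*, the most abundant, was at 453, 615 and 485 TPM in control embryos, 391, 783 and 402 TPM in the Fgf4 libraries and 379, 429 and 541 TPM in the Cic knockdown libraries. Its log2 fold change was -0.21 for Cic knockdown, with a 95% interval of -0.74 to 0.33, so a difference as large as that of *mcm6.2* lies just outside the interval. *mcm6*, the other Mcm6 gene, was low in every library, at 1.44 to 4.86 TPM, with log2 fold changes of 0.25 (95% interval -0.37 to 0.87) for Cic knockdown and -0.012 for Fgf4 overexpression. The reference gene table lists mmcm6, the name of the maternal form, as an older name of *mcm6*. *mcm6* and *mcm6.2* are related copies and may share reads, which makes the level of the scarcer *mcm6* the less certain. The sum of the 7 genes, of which *mcm7* makes up about as much as all others together, was 1093 ± 166 TPM in control, 969 ± 310 TPM in Fgf4 overexpressing and 816 ± 68.3 TPM in Cic knockdown embryos (mean ± SD, n = 3 each).

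The lower p of the 5 ring genes depended on single libraries and on the replicate factor. All 5 log2 fold changes stayed below 0 for both treatments under every alternative scaling, pseudocount, level limit and model tried. The same held whenever libraries were left out, over 12 fits. The 5 genes had been picked by p, and each was lower in all 3 pairs of same-numbered libraries for both treatments. Their kept direction was thus largely fixed beforehand. For Cic knockdown the count of ring genes lower at a p of at most 0.01 went from 5 to 1 (*mcm6.2*) without the replicate factor. It was 2 without Cic knockdown replicate 1, 2 without Cic knockdown replicate 2, 1 without control replicate 1, 2 without control replicate 2 and 0 without all libraries of replicate 1 or of replicate 2.

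**Figure D3:**
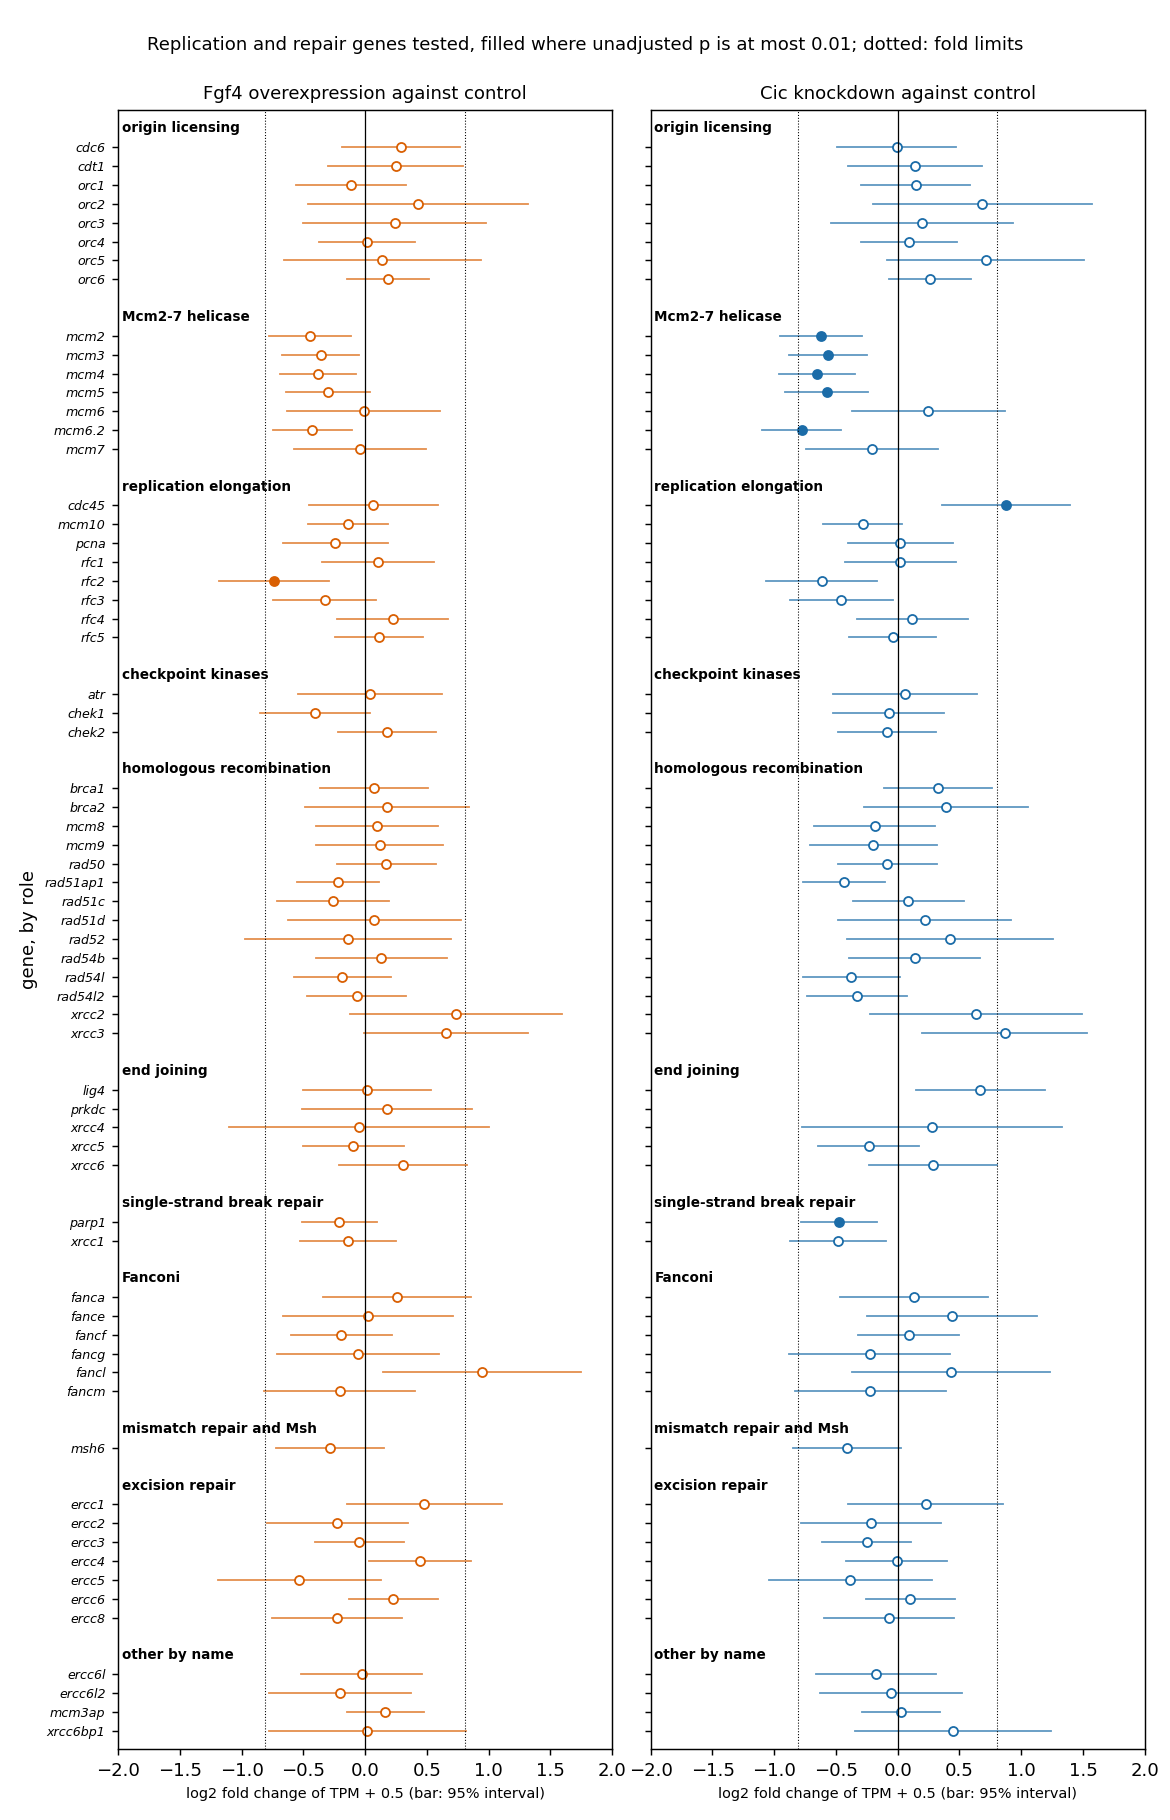
Log2 fold change against control (points) with its 95% interval from limma (bars) for 65 of the 67 genes tested for Fgf4 overexpression and 64 of the 66 tested for Cic knockdown, by role, with filled points where the unadjusted p is at most 0.01 and dotted lines at the fold limits of the call. The 7 filled points for Cic knockdown are *mcm2*, *mcm3*, *mcm4*, *mcm5*, *mcm6.2* and *parp1* below 0 and *cdc45* above, and *rfc2* is the filled point for Fgf4 overexpression.

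*cdc45*, whose product joins the loaded ring to form the active helicase, was the called gene. It moved opposite to the 5 ring genes that were lower after Cic knockdown at an unadjusted limma p of at most 0.01. Its levels were 4.46, 5.88 and 9.19 TPM in control embryos, 3.77, 7.18 and 10.2 TPM in the Fgf4 libraries and 10.1, 8.84 and 18.7 TPM in the Cic knockdown libraries. Replicate 3 was highest in every group, and Cic knockdown replicate 2 lay within the control range, so the groups overlapped. Within replicate numbers the log2 difference of Cic knockdown from control was 1.09, 0.55 and 0.99. The fit gave a log2 fold change of 0.88 (SE 0.22, limma adjusted p = 0.132), a 1.84-fold rise. For Fgf4 overexpression it was 0.07 (limma adjusted p = 0.919). *cdc45* was not called without the replicate factor or after quantile normalization. It was also not called when any control library, Cic knockdown replicate 1 or 3, or all libraries of replicate 1 or of replicate 3 were left out, with log2 fold changes of 0.70 to 1.09 over the 12 fits without some libraries.

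Other genes of the moving fork divided. *rfc2*, a subunit of the clamp loader, was the gene with the lowest p for Fgf4 overexpression. It was at 37.9, 31.6 and 30.7 TPM in control embryos, 16.4, 20.9 and 22.5 TPM in the Fgf4 libraries and 18.6, 20.2 and 26.3 TPM in the Cic knockdown libraries. All control libraries were above all treated ones. On the log2 scale the fold change was -0.74 for Fgf4 overexpression (SE 0.19, limma adjusted p = 0.30) and -0.62 for Cic knockdown (SE 0.19, limma adjusted p = 0.186). The fold of 0.600 for Fgf4 overexpression missed the limit of the call. Without control replicate 3 it passed (log2 fold change -0.91), and likewise without all libraries of replicate 3 (-0.88).

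The clamp gene *pcna* gave no detectable difference. It stood at 277, 297 and 505 TPM in control embryos, 192, 346 and 379 TPM in the Fgf4 libraries and 277, 294 and 534 TPM in the Cic knockdown libraries, with a log2 fold change for Cic knockdown of 0.02 and a 95% interval of -0.40 to 0.45. Of the other clamp loader subunits, *rfc3* had a log2 fold change of -0.46 for Cic knockdown (limma adjusted p = 0.258), and *rfc1*, *rfc4* and *rfc5* were between -0.04 and 0.12. *mcm10*, which encodes a helicase activator, was at -0.28 (limma adjusted p = 0.335).

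None of the origin genes was called for either treatment against control. In both of these comparisons, which share the control libraries, 7 of the 8 had a log2 fold change above 0. None had a p of at most 0.05. Higher in all 3 pairs of same-numbered libraries were 1 gene for Fgf4 overexpression (2742 of all 13437 genes were) and 4 for Cic knockdown (3176 of all 13598). *cdc6* was at 204 ± 42.4 TPM in control, 246 ± 33.5 TPM in Fgf4 overexpressing and 201 ± 35.3 TPM in Cic knockdown embryos (mean ± SD, n = 3 each). *orc2*, a subunit of the origin recognition complex, was at 3.93 to 6.41 TPM in control and 7.0 to 9.35 TPM in Cic knockdown embryos. Those groups did not overlap, but the log2 fold change was 0.68 (SE 0.38, limma adjusted p = 0.391). It was called without Cic knockdown replicate 2. *orc5*, another subunit of the complex, was at 0.71 (limma adjusted p = 0.329).

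Among single-strand break repair genes both members were lower after Cic knockdown without reaching the fold limit. *parp1* was at 527, 547 and 349 TPM in control embryos and 381, 403 and 244 TPM in Cic knockdown embryos. Replicate 3 was the lowest of each group, and the differences within replicate numbers were close, at -0.47, -0.44 and -0.52 (fitted log2 fold change -0.48, limma adjusted p = 0.152). Without the replicate factor its unadjusted p was above 0.05. *xrcc1*, the scaffold protein gene of the same pathway, was at 49.6, 53.8 and 43.7 TPM in control and 33.0, 33.4 and 38.3 TPM in Cic knockdown embryos, without overlap (log2 fold change -0.48, limma adjusted p = 0.221). In the Fgf4 libraries the log2 fold changes were -0.21 for *parp1* and -0.14 for *xrcc1*, with limma adjusted p of 0.525 and 0.748.

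None of the 5 end-joining genes was called. *lig4*, which encodes the ligase that seals joined ends, was at 5.20, 5.43 and 3.48 TPM in control embryos and 8.80, 8.41 and 6.03 TPM in Cic knockdown embryos. Every Cic knockdown library was above every control library, and the differences within replicate numbers were 0.71, 0.59 and 0.72 on the log2 scale. The fitted value was 0.67 (SE 0.22, limma adjusted p = 0.208), and for Fgf4 overexpression it was 0.02 (limma adjusted p = 0.983). *xrcc6* and *xrcc5*, the Ku genes, were at 0.28 and -0.24 for Cic knockdown, with limma adjusted p of 0.530 and 0.513.

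Homologous recombination genes scattered on both sides of 0 in both comparisons, with medians of 0.08 for Fgf4 overexpression and 0.09 for Cic knockdown over 15 genes. For Cic knockdown *rad51ap1*, a recombination gene, had a log2 fold change of -0.43 (limma adjusted p = 0.200) and was lower in all 3 pairs of same-numbered libraries. *brca1* and *brca2*, which encode the Brca proteins, were at 0.32 and 0.39, with limma adjusted p of 0.407 and 0.502. With a control mean of 1.47 TPM, *brca2* entered this comparison through the Cic knockdown group alone.

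*xrcc3*, another recombination gene, varied more between replicate numbers than between groups. It stood at 2.94, 2.56 and 15.6 TPM in control, 5.93, 4.64 and 19.6 TPM in Fgf4 overexpressing and 8.94, 6.32 and 15.5 TPM in Cic knockdown embryos. In replicates 1 and 2 both treatments were above control, and in replicate 3 the Cic knockdown library matched it. The log2 fold change was 0.87 for Cic knockdown (limma adjusted p = 0.203) and 0.66 for Fgf4 overexpression (limma adjusted p = 0.383). For Cic knockdown *xrcc3* was called without control replicate 3 (1.17), without Cic knockdown replicate 3 (1.22) and without all libraries of replicate 3 (1.31).

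In the remaining roles 2 genes had a p of at most 0.05, both for Fgf4 overexpression. *fancl*, which encodes the ubiquitin ligase of the Fanconi pathway, was at 2.86, 5.31 and 3.50 TPM in control and 9.56, 10.5 and 4.55 TPM in the Fgf4 libraries (log2 fold change 0.95, limma adjusted p = 0.338). It was called without control replicate 3, and its log2 fold change ran from 0.63 to 1.299 when libraries were left out. *ercc4*, a nuclease subunit gene of excision repair, had a log2 fold change of 0.44 (limma adjusted p = 0.357) and of -0.0077 for Cic knockdown. *chek1* was at 21.1, 23.1 and 8.95 TPM in control and 12.48, 22.1 and 6.51 TPM in the Fgf4 libraries, which overlapped (log2 fold change -0.41, limma adjusted p = 0.407). The mismatch gene *msh6* was at 28.3 to 33.5 TPM in control and 21.9 to 25.7 TPM in Cic knockdown embryos, without overlap, with a limma adjusted p of 0.312.

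Counted without a model, 8 of 66 genes had every Cic knockdown library below every control library and 3 had every one above, where 5.18% and 9.16% of all genes tested did. The lower ones were *mcm6.2*, *mcm4*, *mcm3*, *rfc2*, *xrcc1*, *msh6*, *ercc3* and *ercc5*, and the higher ones *lig4*, *orc2* and *xrcc2*. With a control mean of 1.14 TPM, *xrcc2* entered this comparison through the Cic knockdown group alone, so its direction was partly fixed by the level minimum. For Fgf4 overexpression 2 genes were wholly below control (3.25% of all genes) and none above (3.3%). Over the 3 pairs of same-numbered libraries, 20 genes were lower and 10 higher in all 3 pairs after Cic knockdown, where 25.3% and 23.4% of all genes were.

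A single library also set some levels. Fgf4 replicate 2 was high for several genes, both scarce and abundant: *xrcc4*, the partner gene of *lig4*, was at 1.55, 10.8 and 2.02 TPM in the Fgf4 libraries and at most 4.83 TPM elsewhere. *orc2* was at 4.84, 14.5 and 3.86 TPM and *ercc1*, which encodes the partner of the Ercc4 nuclease, at 14.0, 43.1 and 13.4 TPM. *cdt1* was highest in that library too. None of these 4 genes was called for Fgf4 overexpression. They were picked after their values were seen.

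**Figure D4:**
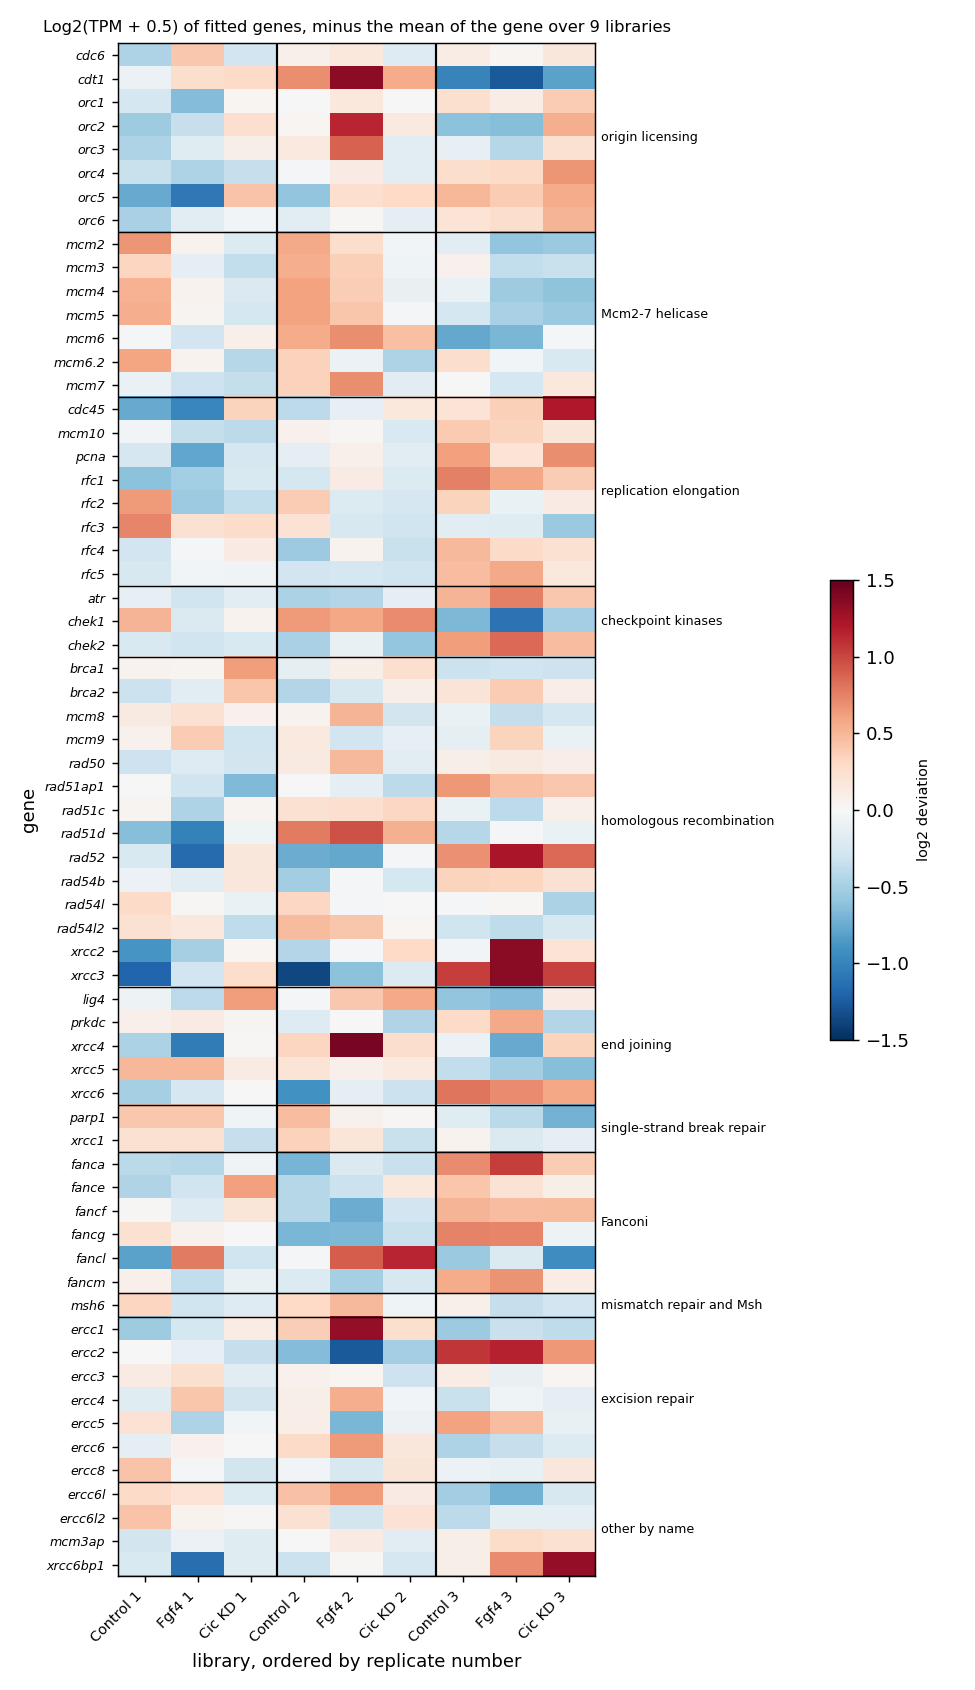
Log2(TPM + 0.5) of 65 of the 67 fitted genes in each library minus the mean of the gene over 9 libraries (colour, limited at 1.5 on either side), with genes by role in rows and libraries ordered by replicate number in columns. Within each replicate number *mcm2* to *mcm5* and *mcm6.2* are lower in both treated libraries than in control, and replicate 3 departs from the others for *cdt1*, *xrcc3* and *ercc2*.

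The treatments were also set against each other in the same fit, where 2.13% of 13607 genes were called. Of the 67 genes *cdc45* alone was called, higher in Cic knockdown than in Fgf4 overexpressing embryos by 0.81 on the log2 scale (limma adjusted p = 0.331). This call lay at the edge of the fold limit (1.75-fold) and was lost under 7 of the alternatives, such as a pseudocount of 1. Without Fgf4 replicate 2, *lig4* and *xrcc4* were called beside it. Only 4 genes had a p of at most 0.05 (5.97%, against 13.5% of all genes), the others being *lig4* at 0.65, *mcm6.2* at -0.35 and *ercc4* at -0.45. For *mcm2*, *mcm3*, *mcm4* and *mcm5* the difference between treatments was -0.18, -0.20, -0.27 and -0.28, with 95% intervals that all included 0 and ran down to -0.61 for *mcm5*. Thus a larger fall of these 4 genes after Cic knockdown than after Fgf4 overexpression was not shown, and neither was an equal one.

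Other genes of the same pathways, 88 matched from 91 symbols, were counted in the same way. For Cic knockdown 3 of 87 tested genes were called (3.45%, against 4.74% of all genes), a share no higher than the background. These 3 rose: *polk*, which encodes a translesion polymerase (log2 fold change 1.57), *nhej1*, an end-joining factor gene (1.28), and *ung*, a uracil glycosylase gene (0.90). *nhej1*, at means of 1.24 TPM in control and 3.70 TPM in Cic knockdown libraries, met the level minimum through the Cic knockdown group alone. Its direction was therefore partly fixed by the minimum. At a p of at most 0.05, 7 of the 87 were higher and 12 lower, where 10.3% and 6.9% of all genes were. The lower ones were *pola1* and *pole* (polymerase subunits), *gins1* and *gins3* (GINS subunits), *rpa1* and *rpa2* (single-strand binding proteins), *fen1*, *rnaseh2a*, *chtf18*, *mcmbp*, *tk1* and the base excision nuclease gene *apex1*. Of these *rpa1* (-0.54, limma adjusted p = 0.123) and *apex1* (-0.52, limma adjusted p = 0.126) had the smallest p. *gins2*, a further GINS subunit gene, was on the higher side at 0.54. For Fgf4 overexpression none of 86 tested genes was called by limma, with 6 lower and 0 higher at a p of at most 0.05 (7.08% and 6.19% of all genes), *rpa2* (-0.68, limma adjusted p = 0.288) first among them.

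Other gene groups moved with Cic knockdown beside these results. Their lists were chosen with earlier results of these data known, so the shares of all genes given beside them describe and do not test. Of 20 genes of the DNA damage response, 10 rose after Cic knockdown (3.99% of all genes were called up), with *tnfrsf10b* (a death receptor gene) at a log2 fold change of 2.94 and *mdm2* (which encodes the ubiquitin ligase that restrains p53) at 1.55. After Fgf4 overexpression 3 rose (1.4% of all genes were called up) and *tp63* fell (1.16% down). The median log2 difference of the 20 from control in Fgf4 replicates 1, 2 and 3 was 0.17, 1.06 and 0.10, so replicate 2 stood apart. Between the treatments directly, 6 of the 20 were called, all higher in Cic knockdown embryos (2.13% of all genes were called). The summed level of the 20 genes was 951 to 1419 TPM in control, 1344 to 2327 TPM in Fgf4 overexpressing and 2261 to 2596 TPM in Cic knockdown libraries. Of 22 oocyte and maternal genes, 13 of 21 tested were called up after Cic knockdown (3.99% of all genes were). None of 19 tested was called up after Fgf4 overexpression (1.4% of all genes were). At a limma p of at most 0.05, 3 of the 19 were higher (6.19% of all genes were). All 19 had a log2 fold change above 0 for Fgf4 overexpression, with a median of 0.40, and the median for Cic knockdown was 1.61 over the 21. In Fgf4 replicates 1, 2 and 3 the median difference from control was 0.31, 0.79 and 0.08. Between the treatments directly, 6 of 21 were called, all higher in Cic knockdown embryos (2.13% of all genes were called). Some of these 21 met the level minimum there through the Cic knockdown group alone. For Cic knockdown against control, *gdf9*, *bmp15*, *btg4*, *cpeb1* and *grip2* reached the level minimum through the Cic knockdown group alone. The direction of these genes was therefore partly fixed by the minimum, and the sets tested for the treatments differ. The sum of the 22 genes was 221 to 385 TPM in control, 220.1 to 672 TPM in Fgf4 overexpressing and 604 to 761 TPM in Cic knockdown libraries. The oocyte genes *gdf9* and *bmp15* had means of 0.280 and 0.0499 TPM in control and 2.81 and 1.67 TPM in Cic knockdown libraries. Others differed less, such as *zp4* (58.1 TPM in control and 71.7 TPM in Cic knockdown libraries) and *tdrd6* (23.2 and 26.2 TPM). After Cic knockdown 1 of the 21 had a log2 fold change below 0, *pgam2* at -1.68, with means of 14.9 TPM in control and 4.38 TPM in Cic knockdown libraries. Whether *pgam2* RNA here is of oocyte or maternal origin was not tested. The part of either list in the levels of the replication and repair genes was not tested. Of 17 tissue markers of the neurula, all detected in every library with 3.55 TPM (*krt12*) as the lowest value, 2 were called lower after Cic knockdown (102 of all 13598 genes were). The log2 fold change was below 0 for 14 of the 17 and above 0 for 3. The neural genes *sox2* and *sox3* fell from control means of 214 and 335 TPM to 102 and 163 TPM. Epidermal and endodermal markers were mixed. Means were lower for *krt12* (364 TPM in control and 71.7 TPM in Cic knockdown libraries) and *xk81a1* (319 and 205 TPM) of the epidermis. The endodermal *gata6* was lower too (92.4 and 40.6 TPM). Higher means were found for the epidermal *tfap2a* (220 and 271 TPM). The endodermal *sox17a* (211 and 271 TPM) and *sox17b.1* (61.4 and 94.8 TPM) were also higher. *krt12* varied widely, up to 747 TPM in a single library. The sum of the 17 was 3134 to 6607 TPM in control, 2790 to 7370 TPM in Fgf4 overexpressing and 2725 to 3593 TPM in Cic knockdown libraries. Globin genes were at most at 3.13 TPM in any library, and the myeloid gene *mpo* fell in both treatments from a control mean of 44.3 TPM. The sum of these 5 blood markers varied widely among control libraries, from 11.6 to 92.6 TPM, and was 1.44 to 6.98 TPM in Fgf4 overexpressing and 2.76 to 4.44 TPM in Cic knockdown libraries. Most of the control mean of this sum came from *mpo*, since no globin gene had a control mean above 1.43 TPM.

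Replicate 3 was also tested against replicates 1 and 2. This comparison sets 3 libraries against all the others, so its counts of calls are not directly comparable with those of a treatment against control. By the same limits 26.2% of 13833 genes were called, and 12 of the 67 replication and repair genes were (17.9%), a smaller share than of all genes. At a p of at most 0.05 there were 42 of 67 (62.7%, against 53.5% of all genes). *cdt1* was at 97.8, 169 and 51.4 TPM in control replicates 1, 2 and 3, 124, 264 and 43.1 TPM in the Fgf4 libraries and 126, 152 and 59.1 TPM in the Cic knockdown libraries. Replicate 3 was the lowest of each group, by 1.53 on the log2 scale (limma adjusted p = 0.0012). The checkpoint kinase genes split, *chek1* being lower in replicate 3 by a log2 value of -1.14 (limma adjusted p = 0.0017) and *chek2* higher by 0.97 (limma adjusted p = 0.0022).

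**Figure D5:**
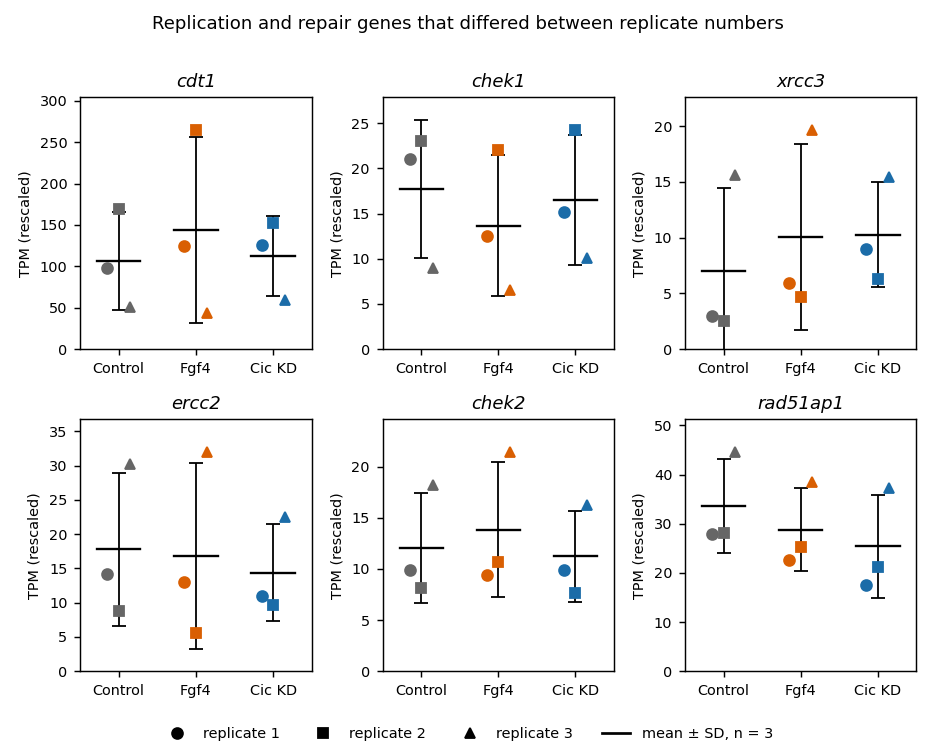
Levels (TPM, linear axes from 0) of the 6 genes with the smallest p for replicate 3 against replicates 1 and 2 in the 3 groups, with a point per library marked by replicate number, and the mean and SD of 3 libraries (the bar of *xrcc3* in control runs below 0 and is cut there). Replicate 3 is the lowest point of every group for *cdt1* and *chek1* and the highest for *xrcc3*, *ercc2*, *chek2* and *rad51ap1*.

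*xrcc3* was higher in replicate 3 by 1.71 and *ercc2*, a helicase gene of excision repair, by 1.44 (limma adjusted p = 0.0018 for both). *ercc2* was at 30.3, 31.9 and 22.5 TPM in the replicate 3 libraries of the control, Fgf4 and Cic knockdown groups and at most 14.2 TPM in the other 6 libraries. *rad51ap1* was higher by 0.75 (limma adjusted p = 0.0028) and did not reach the fold limit. The other called genes, *xrcc6*, *rfc1*, *fanca*, *cdc45*, *rad52*, *atr* and *xrcc6bp1*, were all higher. No ring gene was called. At a p of at most 0.05, 5 of the 7 were lower in replicate 3, where 3548 of all 13833 genes were. Their log2 differences were -0.74 for *mcm6*, -0.66 for *mcm5*, -0.65 for *mcm2*, -0.62 for *mcm4* and -0.32 for *mcm3*. The balance of this comparison depended on the scaling between libraries. Of the 67 genes 10 were called higher and 2 lower as deposited (14.1% and 12.1% of all genes), and 4 higher and 12 lower when each library was rescaled to the same sum (8.12% and 19.4% of all genes), which moved the median of all genes by -0.25 on the log2 scale. *cdt1*, *chek1*, *xrcc3*, *ercc2*, *chek2* and *rad51ap1* kept their direction under that rescaling. They had been picked by p, and the log2 difference of each exceeded the shift of the median, so this was largely fixed beforehand.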

How the data were processed

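Poly(A) RNA of stage 14 embryos was measured in 9 libraries. Per the labels the authors trimmed reads with cutadapt, quantified them with Salmon and aggregated them by gene with sleuth. They deposited a table of gene-level TPM, a signal rescaled between libraries by factors not given in the sources used here, with the authors' mean per group, which was not used. No versions are given.

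Groups and replicate numbers come from the titles, and replicate number was taken as the embryo batch that the study's methods model. Genes with a mean of at least 1.5 TPM in a group were fitted on log2(TPM + 0.5) by limma 3.58.1 (R 4.3.3). The model held a term for condition and a term for replicate number, took in all 9 libraries and let the variance prior follow the mean level (4 residual and 3.31 prior degrees of freedom). Pairing was checked by the correlation of deviations of same-numbered libraries, which exceeded 0.1 in all 9 pairs of libraries. Each comparison tested the genes with such a mean in 1 of its own groups. All p values are two-sided, and Benjamini-Hochberg adjustment ran over all genes tested. A call took an unadjusted p no higher than 0.01 with a fold of at least 1.75 or at most 0.571. The study sets these numbers on its own effect size, which may be on another scale. Nothing in the labels says whether libraries came from separate clutches, so p values measure the spread between these libraries. The fits were tested on simulated data.

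Named were, in each comparison with control, the called genes and then the smallest p up to 10 genes, every Mcm2 to Mcm7 gene, the highest gene of each role, the 6 smallest p for replicate 3, and called genes between treatments. Members and lists were chosen with earlier results of these data known. Genes outside this rule, such as *lig4*, *xrcc1*, *orc2* and *brca1*, and those of other lists were named after their values were seen. Alternatives were 3 scalings, 2 pseudocounts, 2 level limits, a constant prior, the compared groups alone, no replicate factor, an adjusted p limit, and leaving out libraries. Symbols are those of the table, and no coordinates or sequences are given. Of the genes tested 2 are not reported here by name and are not drawn in the plots that name each gene, but are in the counts and medians.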

Additional observations from a re-analysis of the deposited data

How the results depend on the processing

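For Fgf4 overexpression no gene of the 67 was called under any of 11 alternatives, and 0 to 2 were when libraries were left out (2 without control replicate 3, and 1 without all libraries of replicate 3). The count of Mcm2 to Mcm7 genes lower at a p of at most 0.01 went from 0 to 2 with libraries rescaled to equal sums and to 3 after quantile normalization, and ran from 0 to 2 when libraries were left out. For Cic knockdown, the single call became 0 at an adjusted p of at most 0.05, without the replicate block and after quantile normalization, became 2 (*cdc45* and *mcm6.2*) with median-of-ratios scaling, and ran from 0 to 2 when libraries were left out. Without control replicate 3, Cic knockdown replicate 3 or all of replicate 3 the genes called were *mcm6.2* and *xrcc3* in place of *cdc45*. The median log2 fold change of the members, 0.0070, moved to 0.12 with equal library sums, -0.055 with a level limit of 5 and -0.053 with median-of-ratios scaling, and ran from -0.025 to 0.059 when libraries were left out. The count of Mcm2 to Mcm7 genes was 1 without the replicate block and 0 to 5 when libraries were left out. Between treatments the call was lost (0) at an adjusted p of at most 0.05, in the fit of the compared groups, with median-of-ratios scaling, with no level limit, with a pseudocount of 1 and without the replicate block, and the count ran from 0 to 3 when libraries were left out (*cdc45*, *lig4* and *xrcc4* without Fgf4 replicate 2). After quantile normalization the gene called was *prkdc*, lower in Cic knockdown embryos, which met the level minimum through the Fgf4 group alone. For replicate 3 the median of 0.055 became -0.15 with equal library sums, and 8 to 15 genes were called when libraries were left out. The fits without the replicate block, of the compared groups alone and without a replicate number apply to no comparison of replicates.

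Of the single genes that were refitted, *mcm6* and *mcm7* changed direction, both near 0. Medians of the members changed sign too, as given for Cic knockdown and replicate 3, from -0.042 to 0.0076 for Fgf4 overexpression and from -0.14 to 0.021 between treatments. *mcm6* for Fgf4 overexpression was 0.010 after quantile normalization and -0.18 to 0.11 when libraries were left out. *mcm7* ran from -0.32 to 0.16 for Fgf4 overexpression and from -0.44 to 0.048 for Cic knockdown. Over all genes the fit without the block called 121 for Fgf4 overexpression and 371 for Cic knockdown, against 344 and 645. Scaling moved the split of calls for Fgf4 overexpression from 188 up and 156 down to 177 and 249 with median-of-ratios scaling. For Cic knockdown the split moved from 543 and 102 to 468 and 246 after quantile normalization. Equal library sums moved the median of all genes by 0.13 between treatments. The cause of these shifts was not tested. TPM without counts leaves the depth behind low genes unknown.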
